A study of Drosophila melanogaster with 73 samples.

Results

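The messenger RNAs of 9 genes of the insulin receptor and Tor pathway were followed in the gut and the abdominal fat body of adult female Drosophila melanogaster. They are the receptor InR, the adaptors chico and Lnk, the lipid kinase subunit Pi3K92E, the protein kinase Akt, the transcription factor foxo, the growth kinase Tor, and its translational partners S6k and Thor. The 9 genes were chosen by name, and gene identifiers of both count tables were matched to their FlyBase symbols. All 9 were found in both tables, of 11419 genes that were in either table. All 9 passed the filter on low counts in both tissues.

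The S106 GeneSwitch driver was present in every fly, in an outbred Dahomey background, and it drives transgenes in the gut and the abdominal fat body once the steroid RU486 is eaten. The 7 genotypes added transgenes for Foxo, for AopACT (the ETS-family repressor Aop in an always active form), for PntP1 (an isoform of the ETS-family activator Pnt that needs no upstream signal), for each pair of them (Foxo+AopACT, Foxo+PntP1, AopACT+PntP1), or for the triple combination (Foxo+AopACT+PntP1). After 48 h of mating, females were fed 200 µM RU486 (induced) or its ethanol carrier (uninduced) for 6 days. A library came from the pooled organs of several females, the gut samples being guts without Malpighian tubules and the fat body samples abdomens without gut and reproductive organs. No group carried the driver alone, so an effect of RU486 and an effect shared by all transgenes cannot be told apart. The gut gave 36 libraries (19 uninduced, 17 induced) and the fat body 34 (16 uninduced, 18 induced), with 1 to 3 libraries in a group.

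In insulin signalling, the activated receptor recruits adaptors that bring a phosphatidylinositol 3-kinase to the membrane, and the lipid it makes activates Akt. Akt phosphorylates Foxo and keeps it out of the nucleus, so Foxo enters the nucleus and acts on its target genes when insulin signalling is low. Tor, which Akt and amino acids activate, phosphorylates S6k and the translational repressor Thor, the fly 4E-BP. Thor and InR are classical targets of Foxo in flies, so that low insulin signalling raises the mRNA of its own receptor. All steps between the receptor and Foxo act mainly through protein modification, which mRNA counts do not measure.

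Total counts lay between 1598120 and 6145550 in the gut and between 1138812 and 8257766 in the fat body, and mitochondrial genes took 3.13% to 24.9% of gut and 2.98% to 15.4% of fat body counts. A library labelled fat body Foxo+PntP1 uninduced held 115 CPM (counts scaled to the size of the library) of pnt, whereas no other uninduced fat body library held over 22.0 CPM, and it is marked where a result rests on it. A pair of library numbers on the labels (02 and 05) stands for Foxo+PntP1 induced and Foxo uninduced in the gut but for the opposite assignment in the fat body. With these libraries left out, foxo in Foxo gut differed by 2.26 on the log2 scale (edgeR adjusted p = 0.00380) and Thor by 0.90 (edgeR adjusted p = 0.684), and edgeR still called 3 induction responses for the gut and 0 for the fat body. In the gut, pnt rose in all 4 genotypes with PntP1, and aop rose in Foxo+AopACT and the triple combination but also in Foxo+PntP1, which carries no Aop transgene. edgeR did not call aop with AopACT (mean 41.6 to 97.1 CPM) or AopACT+PntP1 (46.8 to 57.2 CPM), and with PntP1 it went from 41.3 to 93.2 CPM, also uncalled. In the fat body edgeR called pnt within AopACT+PntP1 only and aop within no genotype. Across fat body libraries the summed level of the 9 of 11 fat body markers that had counts ranged from 26498 to 268460 CPM, and summed oenocyte markers reached 91345 CPM. In the gut libraries 10 fat body markers had counts and summed to 267 to 2747 CPM, and enterocyte markers summed to 49.4 to 2484 CPM in the fat body libraries. Fewer cells of a type and less RNA per cell cannot be told apart in these bulk samples.

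Where induced and uninduced libraries of a gene do not overlap, the share of all genes with no overlap is the background to read it against. In the gut this share was 10.5% with Foxo, 15.5% with AopACT, 23.7% with PntP1, 36.6% with Foxo+AopACT, 50.1% with Foxo+PntP1, 20.6% with AopACT+PntP1 and 13% with the triple combination. For the fat body it was 26%, 28.6%, 30.8%, 11%, 27.2%, 37.2% and 15.3% in the same order of genotypes. A gene was called changed at an edgeR adjusted p under 0.1 over all genes tested (Benjamini-Hochberg). The share of all genes called is given beside each comparison.

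The counts behind the 9 genes differed widely, and with them the precision. In the gut, the median library held 2800.5 counts of Thor, 535 of S6k, 265 of Akt and 159.5 of foxo, but 60.5 of InR, 39.5 of Tor and 24.5 of Lnk. Fat body medians ran from 2627 counts of Thor down to 41.5 of Lnk. Values for Lnk and Tor therefore carry the most counting error.

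foxo (FBgn0038197; chromosome 3R, 14056945 to 14087978, plus strand, genome release 6) encodes the forkhead transcription factor that insulin signalling restrains, and its mRNA was examined first because it checks the labels of the 4 genotypes with a Foxo transgene. The counts do not separate transgene from resident mRNA. In the gut of Foxo flies, the uninduced libraries held 46.6, 84.5 and 68.1 CPM of foxo and the induced libraries 218, 406 and 410 CPM. Every induced library lay above every uninduced one, and foxo rose by 2.36 ± 0.30 on the log2 scale (SE, 3 libraries each, edgeR adjusted p = 1.07e-04), in a comparison that called 0.507% of all genes. Within the experimental blocks A, C and D the difference was 2.23, 2.27 and 2.59.

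With Foxo+AopACT, gut foxo went from 63.8, 45.4 and 81.4 CPM to 106 and 257 CPM. The groups did not overlap, and foxo rose by 1.48 ± 0.33 on the log2 scale (n = 3 and 2, edgeR adjusted p = 0.0182), where 2.13% of all genes were called. The higher induced library decided this call: without Foxo+AopACT induced replicate 2 the difference was 0.98 (edgeR adjusted p = 0.435). In the remaining 2 genotypes with a Foxo transgene, both of which also carried PntP1, no change passed the test. Foxo+PntP1 libraries held 56.7 CPM uninduced and 57.8, 75.8 and 110 CPM induced (log2 fold change 0.66, edgeR adjusted p = 0.729). The triple combination held 55.2, 73.5 and 92.1 CPM uninduced and 72.6, 56.3 and 102 CPM induced (log2 fold change 0.09, edgeR adjusted p = 0.940), so its groups overlapped.

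In the gut, foxo was also lower where PntP1 was induced without a Foxo transgene. PntP1 flies went from 53.6, 99.0 and 68.4 CPM to 26.1 and 32.2 CPM. The groups did not overlap, foxo fell by 1.27 ± 0.35 on the log2 scale (n = 3 and 2, edgeR adjusted p = 0.0572), where 3.04% of all genes were called, and the difference was -1.04 in block A and -1.09 in block D. This call rested on few libraries, since leaving out one library raised the edgeR adjusted p to 0.101 (uninduced replicate 1), 0.231 (uninduced replicate 2), 0.278 (induced replicate 1) or 0.580 (induced replicate 2), and fitting the genotype alone raised it to 0.185. AopACT+PntP1 flies went from 78.2, 80.6 and 48.3 CPM to 45.8 and 44.8 CPM, again without overlap, but this difference did not pass (log2 fold change -0.78 ± 0.35, edgeR adjusted p = 0.621). AopACT alone gave 56.9, 68.6 and 50.7 CPM uninduced and 54.0 and 51.1 CPM induced, which overlapped. Over all 6 induced gut libraries without a Foxo transgene foxo lay between 26.1 and 54.0 CPM, against 48.3 to 99.0 CPM in the 9 uninduced libraries of these genotypes and 45.4 to 92.1 CPM in the 10 uninduced libraries with the transgene.

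Markers of absorptive enterocytes were also read in these groups. Their summed level (11 genes, all with counts) went from 25651 to 62932 CPM in uninduced PntP1 gut to 23745 to 30718 CPM when induced, which overlap. With Foxo+PntP1 they went from 49273 CPM to between 5736 and 25779 CPM, and in Foxo gut from 50937 to 52642 CPM to 43152 to 63140 CPM. Summed progenitor markers (4 of 5 had counts) lay at 37.9 to 45.5 CPM in uninduced and 59.8 to 61.0 CPM in induced PntP1 gut. Their part in the foxo result was not tested.

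**Figure D1:**
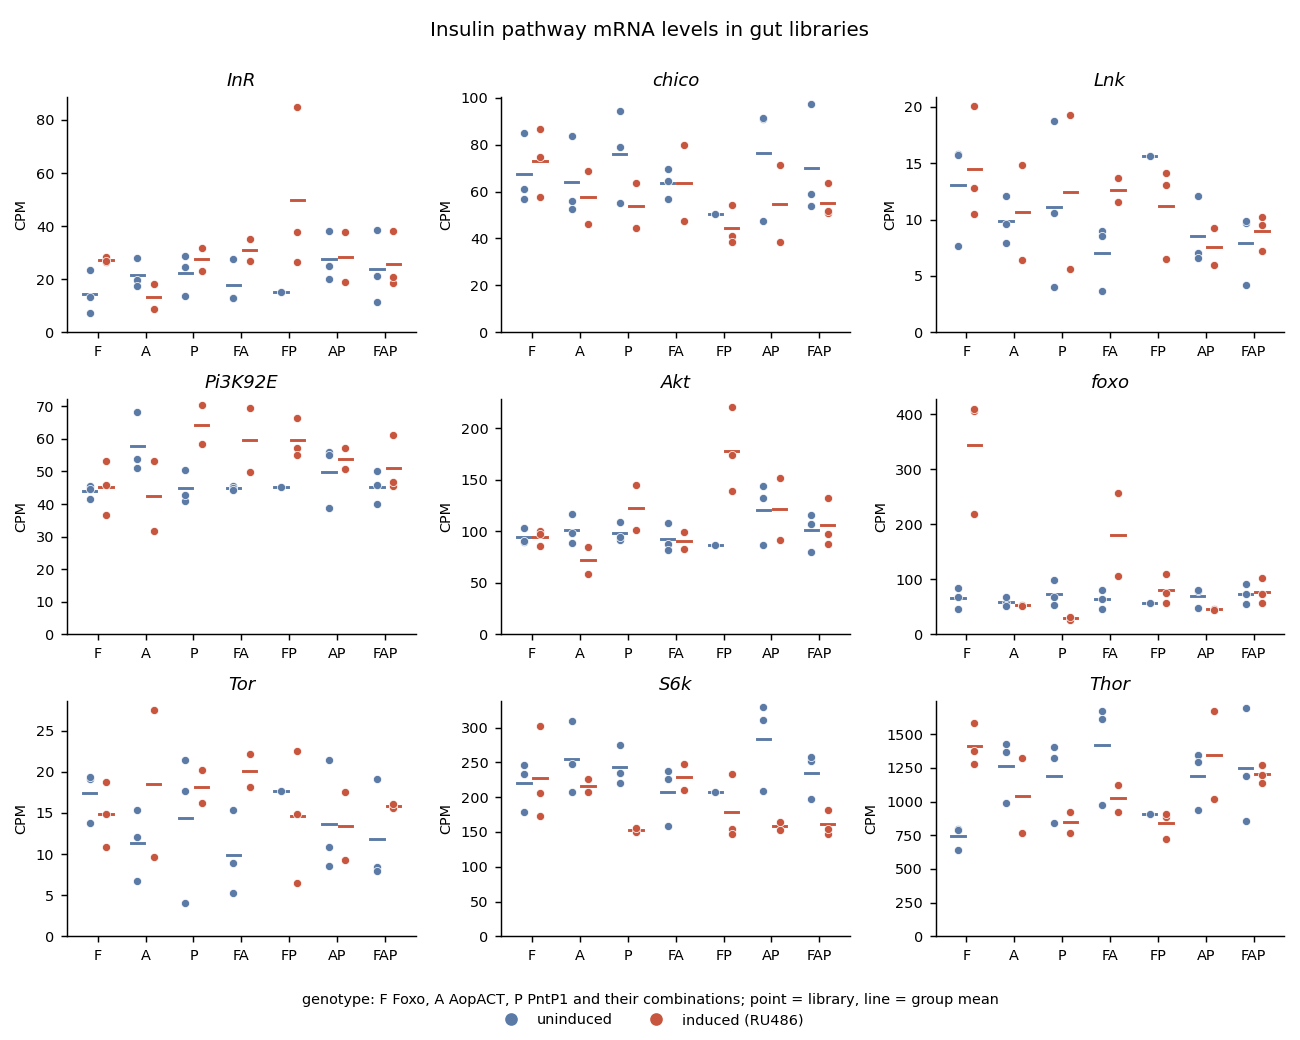
Level of each of the 9 genes in every gut library (vertical axis, CPM from 0, with its own scale per gene) by genotype and induction (F Foxo, A AopACT, P PntP1 and their combinations). Each point is a library and each line a group mean. For foxo, the Foxo induced libraries stand at 218 to 410 CPM and the PntP1 induced libraries at 26.1 and 32.2 CPM, while for Thor the uninduced Foxo libraries sit low, at 644 to 800 CPM.

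The response of foxo differed between genotypes in the gut. The foxo counts include transgene mRNA. A difference between genotypes with and without the Foxo transgene is therefore built into the design and does not show a response of resident foxo. Of the 9 genes, foxo alone passed the edgeR test of the genotype by induction interaction (adjusted p = 7.97e-05), which called 2.45% of all genes, and foxo did so under every alternative run, with the adjusted p reaching 8.89e-04 at most. Thor passed it with DESeq2 (adjusted p = 0.0472, 474 of 9270 genes called) and limma voom (adjusted p = 0.00439) but not with edgeR (adjusted p = 0.394). limma voom also called Akt (adjusted p = 0.0914) and S6k (adjusted p = 0.0293), in a fit that called 1600 of 9270 genes. When responses were averaged with and without each transgene, induction changed foxo by 1.93 ± 0.27 more on the log2 scale with a Foxo transgene than without (edgeR adjusted p = 5.22e-04, 0.0431% of all genes called). The response with PntP1 minus that without it was -1.50 ± 0.25 (edgeR adjusted p = 6.30e-04, 4.25% of all genes called). A smaller share of the genotypes with PntP1 than of those without it carried the Foxo transgene, so transgene mRNA enters this difference too. Among the 27 such tests of the 9 genes these 2 passed, and for AopACT, where 2.02% of all genes were called, none did. Direct differences between genotypes with and without PntP1 were picked after their values were seen. For AopACT+PntP1 minus AopACT none of the 9 genes had an unadjusted p under 0.05 in edgeR, against 3.76% of all genes. The other 2 differences were, for foxo, -1.69 ± 0.50 for Foxo+PntP1 minus Foxo (edgeR adjusted p = 0.142) and -1.39 ± 0.44 for the triple combination minus Foxo+AopACT (edgeR adjusted p = 0.592), where 1.41% and 0.108% of all genes were called. DESeq2 (adjusted p = 0.0550, 218 of 9270 genes called) and limma voom (adjusted p = 0.0977, 281 called) called the first of these, and so did edgeR when Foxo+AopACT uninduced replicate 2, Foxo+AopACT induced replicate 1 or triple combination induced replicate 2 was left out (adjusted p = 0.0815, 0.0911 and 0.0925).

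Fat body foxo showed no detectable rise in any genotype that carries the Foxo transgene. Foxo flies held 78.0, 59.7 and 107 CPM uninduced and 92.3, 58.3 and 44.5 CPM induced. These groups overlapped (log2 fold change -0.39 ± 0.34, 95% interval -1.09 to 0.30, edgeR adjusted p = 0.458). Foxo+AopACT held 117 and 48.9 CPM uninduced and 123, 149 and 72.9 CPM induced, Foxo+PntP1 103, 123 and 98.6 against 59.5 and 98.7 CPM, and the triple combination 66.2 and 93.1 against 61.6, 51.2 and 55.7 CPM. Among the genotypes without a Foxo transgene, AopACT went from 82.2 and 105 CPM to 59.5 and 52.7 CPM and AopACT+PntP1 from 97.1 and 39.2 CPM to 132, 114 and 87.7 CPM (log2 fold change 0.80, edgeR adjusted p = 0.212), while PntP1 overlapped. The fat body libraries are therefore named by their labels, which the foxo mRNA did not check. The library labelled Foxo+PntP1 uninduced with high pnt held 103 CPM of foxo, and without it the fat body still gave 0 induction calls among the 9 genes.

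Thor (FBgn0261560; chromosome 2L, 3478434 to 3479612, plus strand), which holds back cap-dependent translation, was the most abundant of the 9 mRNAs in both tissues. In Foxo gut it went from 800, 644 and 791 CPM to 1582, 1278 and 1373 CPM. Every induced library was above every uninduced one, and within blocks A, C and D the difference was 0.98, 0.99 and 0.80 on the log2 scale. The fitted difference was 0.92 ± 0.27 (3 libraries each), and it missed the threshold in edgeR (unadjusted p = 0.00240, adjusted p = 0.256). It passed with DESeq2 (adjusted p = 0.0267, 91 of 9270 genes called), with limma voom (adjusted p = 0.00681, 291 of 9270 genes called) and with the Foxo genotype fitted alone in edgeR (adjusted p = 0.0989).

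The uninduced Foxo libraries were the low side of this difference. Their 644 to 800 CPM lay under all 16 uninduced gut libraries of the other genotypes, which held 844 to 1695 CPM with a median of 1307 CPM. The induced Foxo libraries, at 1278 to 1582 CPM, lay inside that range. This order was noticed after the values were seen and was not tested. Across all uninduced gut libraries, Thor and the other 8 genes did not pass between genotypes with and without a Foxo transgene (0 of 9 called by edgeR, DESeq2 or limma voom, where edgeR called 1% of all genes).

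In Foxo+AopACT gut, Thor held 1669, 971 and 1615 CPM uninduced and 1126 and 919 CPM induced (log2 fold change -0.51 ± 0.31, edgeR adjusted p = 0.418), with differences of -0.57 in block A and -0.81 in block D. The groups overlapped, and edgeR did not call the change. limma voom did (adjusted p = 0.0265), in a fit that called 3288 of 9270 genes. The Foxo+AopACT response minus the Foxo response was -1.43 ± 0.41 on the log2 scale (edgeR unadjusted p = 0.00190, adjusted p = 0.315), in a comparison that called 0.0647% of all genes. DESeq2 put this difference at -1.37 (adjusted p = 0.0264) and limma voom at -1.48 (adjusted p = 0.00318), where they called 88 and 1722 of 9270 genes. Thor was among the genes that the study picked from these libraries for their response to both transgenes, so this difference is not independent evidence of its direction. The study also measured its mRNA by qRT-PCR on the RNA prepared for sequencing. There it reported that AopACT antagonised the rise with Foxo in the gut. With each library left out in turn the difference in the counts stayed between -1.53 and -1.29. Against the Foxo and AopACT responses added together, the Foxo+AopACT response differed by -1.21 ± 0.51 (edgeR adjusted p = 0.918, 0% of all genes called).

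In the remaining gut genotypes Thor did not pass in edgeR. AopACT libraries held 1370, 992 and 1429 CPM uninduced and 767 and 1320 CPM induced, which overlapped. PntP1 libraries held 1408, 1325 and 844 against 920 and 770 CPM (log2 fold change -0.55 ± 0.31, edgeR adjusted p = 0.593), with overlap, and limma voom called this change (adjusted p = 0.0591) together with 1362 of 9270 genes. Foxo+PntP1 libraries held 911 against 723, 887 and 908 CPM, so the single uninduced library and the highest induced one lay side by side. AopACT+PntP1 and the triple combination overlapped, at 1346, 1290 and 941 against 1016 and 1669 CPM and at 1192, 1695 and 854 against 1268, 1194 and 1141 CPM.

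Foxo fat body had the opposite order of Thor libraries to Foxo gut. It held 779, 1103 and 1211 CPM uninduced and 771, 375 and 707 CPM induced, so every induced library lay below every uninduced one (log2 fold change -0.69 ± 0.35, edgeR adjusted p = 0.244). Within blocks A, C and D the difference was -0.015, -1.55 and -0.78 on the log2 scale, and 26% of all genes had no overlap in this genotype. Foxo+AopACT held 806 and 823 CPM against 841, 1116 and 1222 CPM, all induced above all uninduced (log2 fold change 0.31 ± 0.40, edgeR adjusted p = 1). The difference between these responses was 1.003 (edgeR adjusted p = 0.321, 0.0514% of all genes called), and against both single responses added together Foxo+AopACT differed by 1.61 ± 0.68 (edgeR adjusted p = 0.268, 0.0719% of all genes called). The other fat body groups held 906 and 1204 against 899 and 622 CPM with AopACT, 861, 669 and 769 against 1565 and 1016 CPM with Foxo+PntP1, and the remaining 3 genotypes overlapped. None of these passed, and the responses of the tissues were not tested against each other. The 861 CPM in uninduced Foxo+PntP1 came from the library with high pnt. Several marker lists of other cell types also shifted without overlap in Foxo fat body. Summed fat body markers went from 93606 to 195660 CPM uninduced to 36805 to 90906 CPM induced, and oenocyte markers from 57153 to 85395 CPM to 22448 to 51769 CPM. Enterocyte (273 to 1030.4 CPM against 93.1 to 203 CPM), enteroendocrine (207 to 282 against 59.8 to 177 CPM) and Malpighian tubule markers (557 to 775 against 169 to 509 CPM) were lower too, and progenitor markers higher (15.8 to 36.1 against 43.9 to 94.5 CPM). Their part in the Thor values was not tested.

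**Figure D2:**
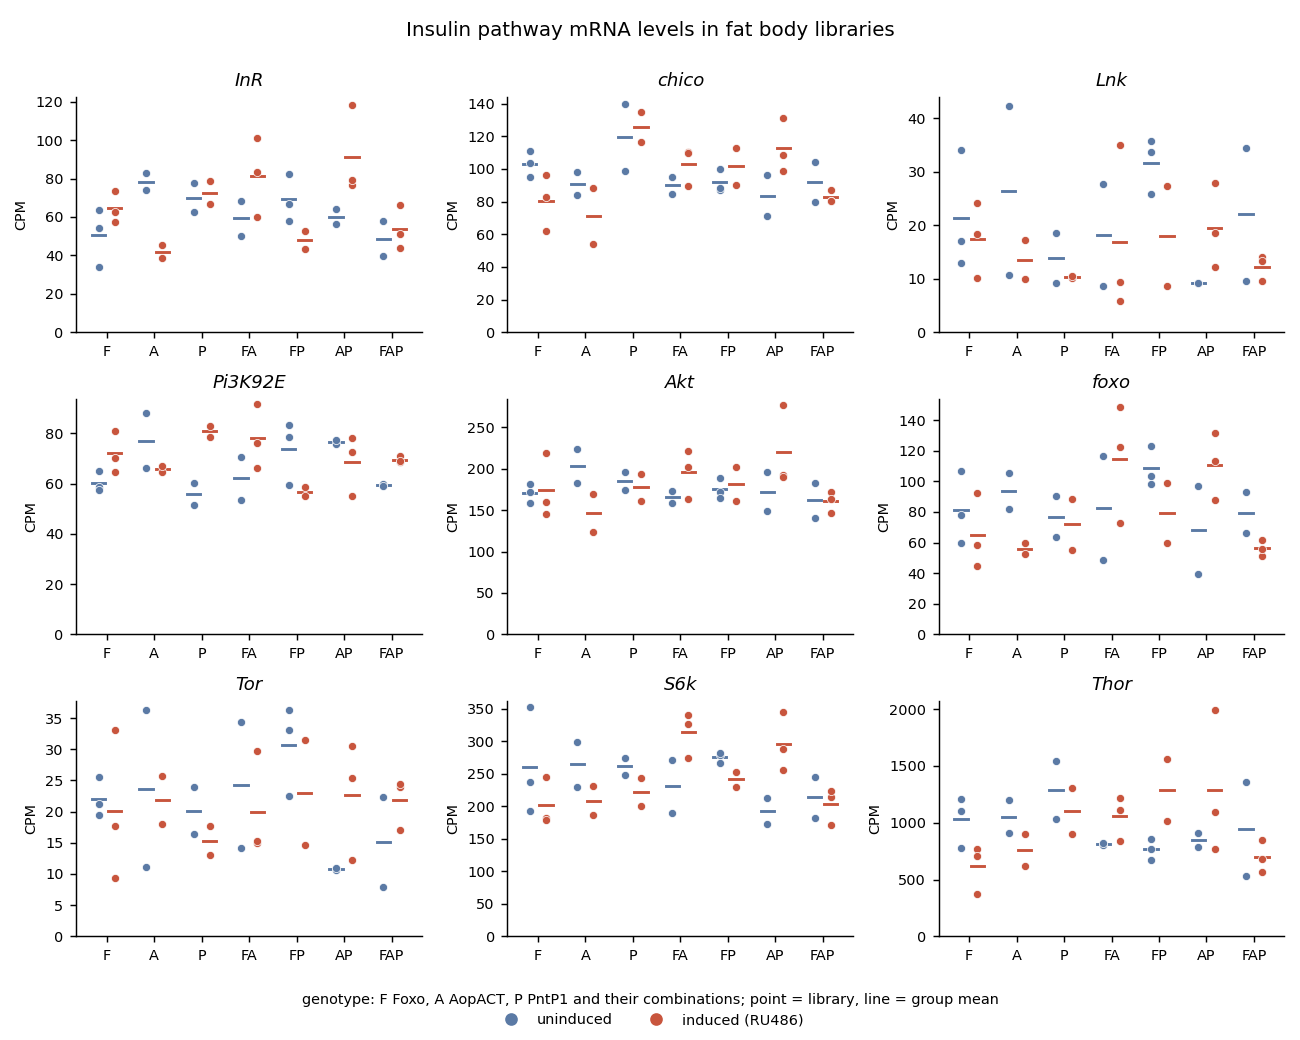
Level of each of the 9 genes in every fat body library (vertical axis, CPM from 0, with its own scale per gene) by genotype and induction, drawn as for the gut. Each point is a library and each line a group mean. For foxo, induced and uninduced libraries mix in the Foxo genotype (44.5 to 92.3 against 59.7 to 107 CPM), and InR with AopACT goes from 74.0 and 82.7 CPM down to 38.4 and 45.2 CPM.

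InR (FBgn0283499; chromosome 3R, 21570248 to 21619321, minus strand) encodes the insulin receptor. Over all gut libraries it ranged from 7.17 to 38.7 CPM uninduced (median 19.9) and from 8.95 to 84.9 CPM induced (median 26.7). No genotype passed in either tissue in edgeR. In Foxo gut it held 7.17, 13.1 and 23.3 CPM uninduced and 26.6, 28.5 and 26.9 CPM induced. All induced libraries lay above the uninduced ones, which spread widely, and the difference of 0.94 ± 0.47 on the log2 scale did not pass (edgeR adjusted p = 1). Foxo+PntP1 gut held 15.1 CPM uninduced and 26.5, 84.9 and 37.9 CPM induced (log2 fold change 1.88 ± 0.72, n = 1 and 3, edgeR adjusted p = 0.296). The highest of these was the library in which mitochondrial genes took 24.9% of counts. Averaged over genotypes, the InR response in the gut was 1.19 ± 0.42 higher with a Foxo transgene than without it (unadjusted p = 0.00880 in the edgeR fit, edgeR adjusted p = 1).

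Fat body InR was lower with AopACT and higher with AopACT+PntP1, without passing the test. AopACT flies held 82.7 and 74.0 CPM uninduced and 45.2 and 38.4 CPM induced (log2 fold change -0.88 ± 0.33, edgeR adjusted p = 0.639). AopACT+PntP1 fat body went from 64.0 and 56.2 CPM to 118, 76.6 and 79.2 CPM (log2 fold change 0.60, edgeR adjusted p = 0.220). The difference between these responses, picked after its values were seen, was 1.49 ± 0.44 (edgeR adjusted p = 0.117, 1.49% of all genes called), and it passed when AopACT uninduced replicate 1 (1.44, edgeR adjusted p = 0.0632), Foxo uninduced replicate 1 (0.0975) or either Foxo+AopACT uninduced library (0.0903 and 0.0890) was left out. The same difference also passed in edgeR with RLE scaling (adjusted p = 0.0998), without the replicate block (adjusted p = 0.0907) and without libraries 02 and 05 (adjusted p = 0.0975). With DESeq2, which called 764 of 9734 genes, it passed (adjusted p = 0.0213) together with those of foxo, Akt and S6k (adjusted p = 0.0925, 0.0652 and 0.0777). Summed fat body markers moved with both groups, from 38174 to 268460 CPM down to 26498 to 32204 CPM with AopACT and from 32185 to 43430 CPM up to 78063 to 203170 CPM with AopACT+PntP1. With AopACT, ovary and follicle cell markers (35.7 to 1652 against 3854 to 3970.5 CPM) and enterocyte markers (49.4 to 204 against 263 to 715 CPM) were higher without overlap, and enteroendocrine (145 to 163 against 86.4 to 87.5 CPM) and spermatheca markers (236 to 271 against 191 to 201 CPM) lower. With AopACT+PntP1, oenocyte (38878 to 42609 against 48859 to 80796 CPM), muscle (3057 to 3689 against 4292 to 7118 CPM), neuron (66.8 to 93.6 against 133 to 223 CPM) and hemocyte markers (85.7 to 163 against 171 to 255 CPM) were all higher without overlap. The part of these lists in the InR values was not tested.

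For the adaptors and Pi3K92E edgeR called no induction response. chico (FBgn0024248; chromosome 2L, 10242512 to 10247078, minus strand), the insulin receptor substrate, ranged from 47.4 to 97.5 CPM (median 61.2) in uninduced and from 38.4 to 86.9 CPM (median 54.3) in induced gut, and no genotype passed. An antisense gene shares 10.6% of its exon bases, and since use of the strand in counting is not given, its counts are uncertain. In the fat body chico lay between 54.3 and 140 CPM. Lnk (FBgn0028717; chromosome 3R, 25888542 to 25893270, plus strand), an SH2B-family adaptor that acts beside Chico, lay between 3.66 and 20.1 CPM in the gut and spread widely between replicates of the fat body, for example 10.6 and 42.2 CPM in uninduced AopACT. Pi3K92E (FBgn0015279; chromosome 3R, 20628972 to 20634732, minus strand), the catalytic subunit of the lipid kinase, lay within 31.8 to 70.4 CPM in the gut and 51.6 to 91.8 CPM in the fat body. With PntP1 it was above the uninduced libraries in both tissues, at 50.6, 40.9 and 42.9 against 70.4 and 58.4 CPM in the gut and 51.5 and 60.2 against 82.9 and 78.7 CPM in the fat body, by 0.48 and 0.49 on the log2 scale, but neither passed (edgeR adjusted p = 0.390 and 1). limma voom called it in PntP1 gut (adjusted p = 0.0626, where 1362 of 9270 genes were called). In Foxo+AopACT gut, where limma voom called 3288 of 9270 genes, it called foxo, InR, Lnk, Pi3K92E, S6k and Tor of the 9 as higher (log2 fold changes 1.25, 0.98, 1.21, 0.43, 0.44 and 1.11) and Thor as lower.

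Akt (FBgn0010379; chromosome 3R, 16099228 to 16105670, plus strand), the kinase that phosphorylates Foxo, was level in Foxo gut, at 103, 89.7 and 90.2 CPM uninduced and 86.0, 100 and 96.9 CPM induced. In Foxo+PntP1 gut it held 86.3 CPM uninduced and 139, 221 and 174 CPM induced. No gut library of another genotype held over 152 CPM, a level above the 139 CPM library. The 221 CPM came from the library in which mitochondrial genes took 24.9% of counts. The log2 fold change was 1.02 ± 0.37 (n = 1 and 3) and missed the threshold in edgeR (adjusted p = 0.244), while DESeq2 (adjusted p = 0.0661, 348 of 9270 genes called) and limma voom (adjusted p = 0.0701, 462 called) called it. The result rests on 1 uninduced library. Fat body Akt lay between 123 and 277 CPM, and its 7 induction responses spread around 0.

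**Figure D3:**
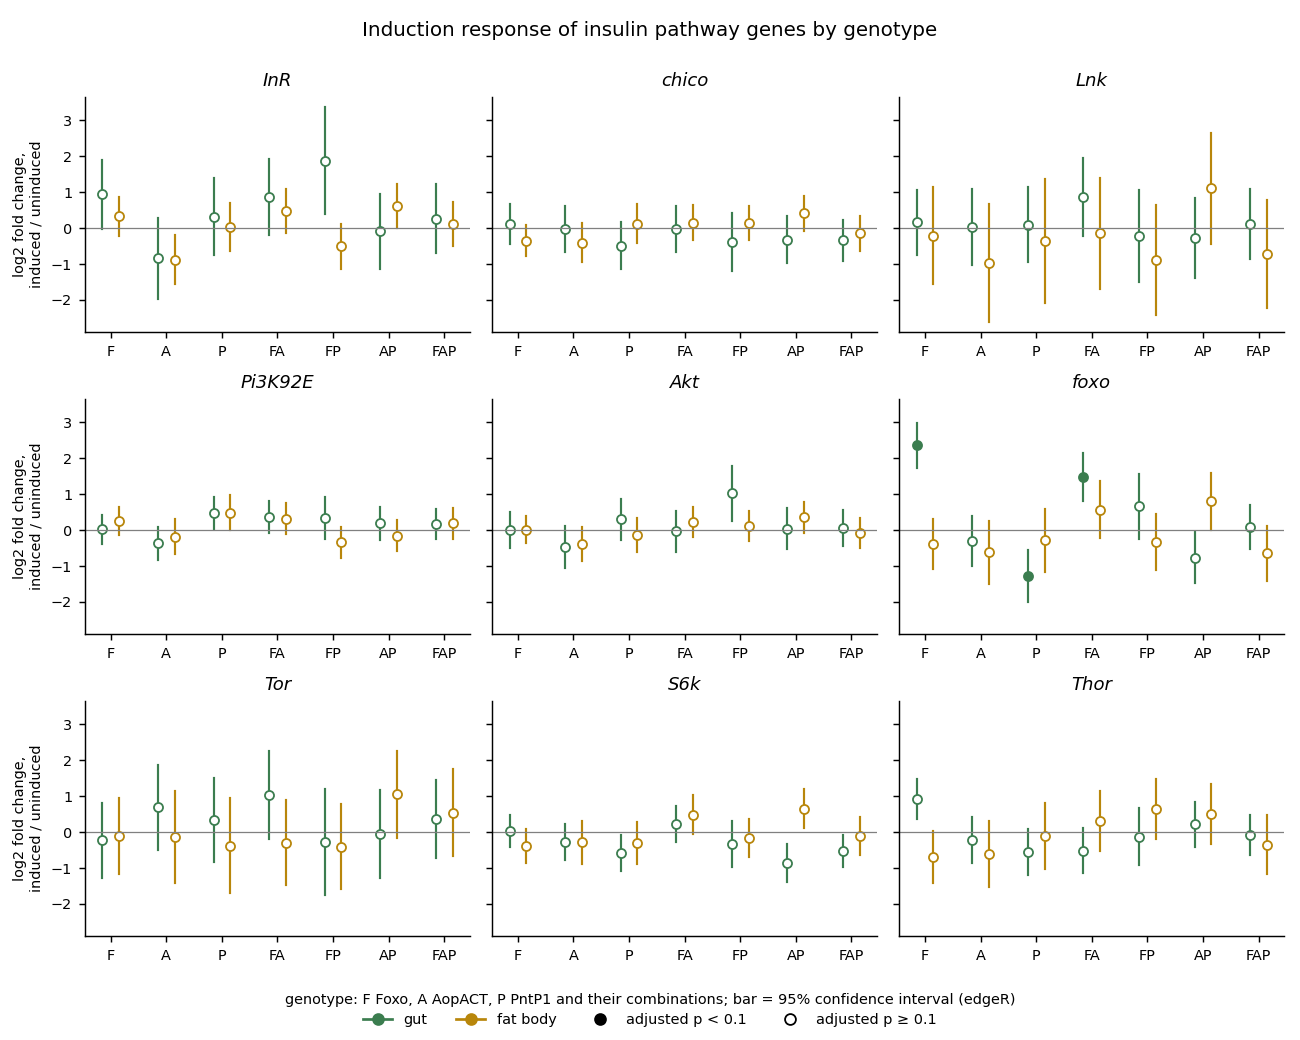
Induction response of the 9 genes in each genotype (vertical axis, log2 fold change of induced over uninduced, with bars for the 95% confidence interval), gut in green and fat body in gold. Filled points are those called at an edgeR adjusted p under 0.1: foxo in gut with Foxo (2.36), with Foxo+AopACT (1.48) and with PntP1 (-1.27), and no point in the fat body.

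Tor and S6k belong to the growth arm. Tor (FBgn0021796; chromosome 2L, 13004480 to 13013197, plus strand) held 4.04 to 27.5 CPM in the gut and 7.84 to 36.4 CPM in the fat body, and no genotype passed in edgeR. S6k (FBgn0283472; chromosome 3L, 5797549 to 5810931, minus strand), the ribosomal protein S6 kinase, ranged from 159 to 329 CPM (median 234) in uninduced gut and from 147 to 303 CPM (median 172) in induced gut, so these ranges overlapped. Averaged over the 7 genotypes its mRNA fell by 0.33 ± 0.09 on the log2 scale in the gut (edgeR adjusted p = 0.0232), lower in 5 of 7 genotypes. It was the single gene of the 9 to pass this comparison, a share near the 11.1% of all genes called. It did so with each library left out whose removal allowed a fit. The single uninduced Foxo+PntP1 library could not be left out. The mean responses of foxo (0.32, edgeR adjusted p = 0.141) and InR (0.48, edgeR adjusted p = 0.167) in the gut did not pass. That of foxo passed with DESeq2 (adjusted p = 0.0829, 1186 of 9270 genes called), limma voom (adjusted p = 0.0780) and, in edgeR, without the 2 libraries high in mitochondrial counts (adjusted p = 0.0718). That of InR passed with limma voom (adjusted p = 0.0861, 2094 of 9270 genes called), and that of chico in edgeR without AopACT+PntP1 induced 2 (-0.31, adjusted p = 0.0958). In edgeR that of foxo also passed (0.35 to 0.40) without any one of 7 libraries, namely uninduced Foxo 2, AopACT 1, PntP1 2, AopACT+PntP1 1 and triple combination 3 and induced Foxo+AopACT 1 and triple combination 2, and that of InR (0.56 in both cases) without uninduced AopACT 1 or triple combination 3.

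By genotype, S6k was lower without overlap in 3 of the 4 genotypes with PntP1, although none passed in edgeR. In AopACT+PntP1 gut it held 329, 310 and 209 CPM uninduced and 153 and 165 CPM induced (log2 fold change -0.86 ± 0.25, edgeR adjusted p = 0.169, DESeq2 adjusted p = 0.0234 with 154 of 9270 genes called), and edgeR called it without uninduced replicate 3 (-1.03, adjusted p = 0.0992). The triple combination held 197, 252 and 257 against 182, 147 and 155 CPM, PntP1 234, 275 and 220 against 150 and 156 CPM, and both had no overlap (log2 fold changes -0.53 and -0.58, edgeR adjusted p = 0.346 for each). Foxo+PntP1 held 208 CPM uninduced and 155, 233 and 147 CPM induced, which overlapped. In Foxo gut S6k also overlapped, at 179, 234 and 247 against 206, 303 and 172 CPM, as it did with Foxo+AopACT. limma voom called S6k lower with PntP1 (-0.59, adjusted p = 0.0472, 1362 of 9270 genes called) and with AopACT+PntP1 (-0.96, adjusted p = 0.0658, 130 called). With Foxo+AopACT limma voom called it higher (0.44, adjusted p = 0.0669, 3288 called). The response with PntP1 minus that without it was -0.57 ± 0.18, which missed the threshold in edgeR with TMM scaling (adjusted p = 0.111). It passed with RLE scaling (edgeR adjusted p = 0.0894), DESeq2 (adjusted p = 0.0355, 536 of 9270 genes called), limma voom (adjusted p = 0.0173, 680 called) and with the 2 gut libraries of over 20% mitochondrial counts left out (edgeR adjusted p = 0.0777). It also passed in edgeR (-0.60 to -0.63) without any one of 7 libraries, namely uninduced Foxo 3, Foxo+AopACT 3 and AopACT+PntP1 3 and induced Foxo 3, Foxo+PntP1 2, AopACT+PntP1 2 and triple combination 1. Summed enterocyte markers went from 24638 to 51037 CPM uninduced to 12928 to 32921 CPM induced in AopACT+PntP1 gut, and over all gut libraries from a median of 46271 CPM uninduced to 26267 CPM induced. Their part in the S6k result was not tested.

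Over the 63 gene by genotype tests of a tissue, 3 were called in the gut, all of foxo, and 11 had an unadjusted p under 0.05 in edgeR. The other genotypes had a background of 0.291% (AopACT), 2.79% (Foxo+PntP1), 0.787% (AopACT+PntP1) and 1.64% (triple combination) of all genes called. By genotype, 4.01% to 15.2% of all gut genes and 2.17% to 23.2% of all fat body genes had an unadjusted p under 0.05 in edgeR. In the fat body edgeR called 0 of 63, with 4 at an unadjusted p under 0.05, and DESeq2 called 1, S6k in AopACT+PntP1 (adjusted p = 0.0761), where it called 1013 of 9734 genes. There S6k held 212 and 172 CPM uninduced and 345, 288 and 257 CPM induced, without overlap (log2 fold change 0.65, edgeR adjusted p = 0.167). The fat body background was 0% with Foxo, 0.411% with AopACT, 0.0103% with PntP1, 0.0308% with Foxo+AopACT, 0% with Foxo+PntP1, 0.123% with AopACT+PntP1 and 0.0103% with the triple combination. Non-overlap of induced and uninduced libraries was seen in 20 of 63 gut tests (12 above, 8 below) and 20 of 63 fat body tests (10 above, 10 below), against 24.3% and 25.2% over all genes and genotypes. The fat body interaction called none of the 9 in edgeR (0.113% of all genes). In it 1 of 9 had an unadjusted p under 0.05 in edgeR, against 13.1% of all genes. DESeq2 called InR (adjusted p = 0.0934) and S6k (adjusted p = 0.0997) there, among 567 of 9734 genes. Neither the fat body mean response (0.277% of all genes) nor the 27 transgene comparisons (0% with Foxo, 0.0514% with AopACT, 0.452% with PntP1) called one of the 9 in edgeR. Nor did any of the 9 pass between uninduced fat bodies with and without a Foxo transgene (0.0719% of all genes).

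The resting levels of the 9 genes were compared between uninduced gut (19 libraries) and uninduced fat body (16 libraries) in one fit of both tissues, where 5 of 9 passed and 74.1% of all genes did. Lower in the gut were InR, with a log2 difference of -1.27 ± 0.17 (23.7 ± 9.81 against 54.5 ± 13.4 CPM on the joint scale, SD, edgeR adjusted p = 1.46e-08), Akt with -0.47 ± 0.10 (edgeR adjusted p = 3.55e-05) and Lnk with -0.53 ± 0.24 (edgeR adjusted p = 0.0439). Thor was higher in the gut by 0.59 ± 0.15 (1312 ± 354 against 850.2 ± 286 CPM, edgeR adjusted p = 8.48e-04) and S6k by 0.32 ± 0.10 (edgeR adjusted p = 0.00496). foxo was at 75.6 ± 17.5 CPM in the gut and 75.0 ± 21.6 CPM in the fat body, a difference of 0.01 ± 0.16. chico, Pi3K92E and Tor did not pass either. The Lnk call ended when any one of 10 uninduced libraries was left out (gut Foxo 1, Foxo+AopACT 1 and 3, PntP1 2, AopACT+PntP1 2 and triple combination 3, fat body Foxo 3, AopACT 2, Foxo+AopACT 1 and triple combination 2), with differences of -0.25 to -0.45 and an edgeR adjusted p of up to 0.360. Over all genes without the filter on low counts, chico passed too (-0.20, edgeR adjusted p = 0.0985).

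Per length, Thor stood far above the other 8 in both tissues, at 1737 ± 469 RPKM (CPM per kilobase of exon) in uninduced gut and 1126 ± 379 RPKM in uninduced fat body. The next level in the gut was that of S6k at 55.3 ± 10.5 RPKM, followed by Akt at 23.3 ± 4.07 and chico at 21.7 ± 5.29 RPKM, a pair whose SD ranges overlap, and foxo at 18.3 ± 4.24 RPKM. Pi3K92E followed at 11.1 ± 1.76, then Lnk at 3.38 ± 1.46, InR at 2.08 ± 0.86 and Tor at 1.89 ± 0.82 RPKM, whose SD ranges overlap. The fat body had the same order, with S6k at 44.2, Akt at 31.6, chico at 23.7, foxo at 18.2, Pi3K92E at 12.0, Lnk at 5.48, InR at 4.80 and Tor at 2.35 RPKM.

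**Figure D4:**
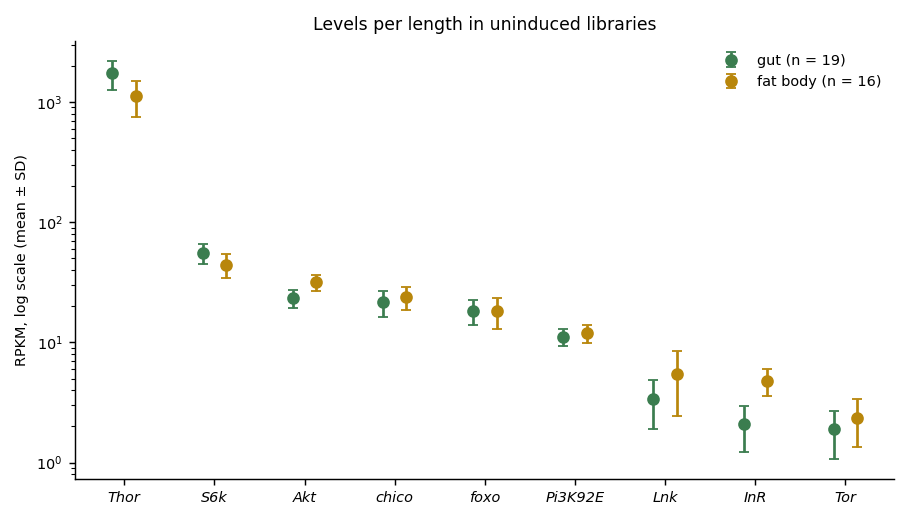
Level per length of the 9 genes (RPKM on a log axis) in uninduced gut and uninduced fat body, where points are means and bars SDs over 19 gut and 16 fat body libraries. Thor sits alone at the top, at a mean of 1737 RPKM in gut and 1126 RPKM in fat body, and InR separates the tissues most, at 2.08 and 4.80 RPKM.

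Within a tissue some pairs of the 9 genes moved together from library to library and others did not. These correlations of log2 CPM (36 gut and 34 fat body libraries, block removed) describe libraries that share depth and tissue composition. In the gut the receptor went with Akt (Pearson r = 0.77) and with Pi3K92E (0.64), Lnk with Tor (0.76) and chico with Thor (0.60). Among fat body libraries the pairs InR and Akt (0.75), Lnk and Tor (0.83) and chico and Thor (0.81) recurred, and foxo went with S6k (0.85). Other pairs were near 0, such as foxo with Akt (-0.02) and foxo with Tor (-0.03) in the gut and InR with Lnk (0.01) in the fat body. Negative values in the gut joined chico and Tor (-0.61), Thor and Tor (-0.59) and Lnk and Thor (-0.57).

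**Figure D5:**
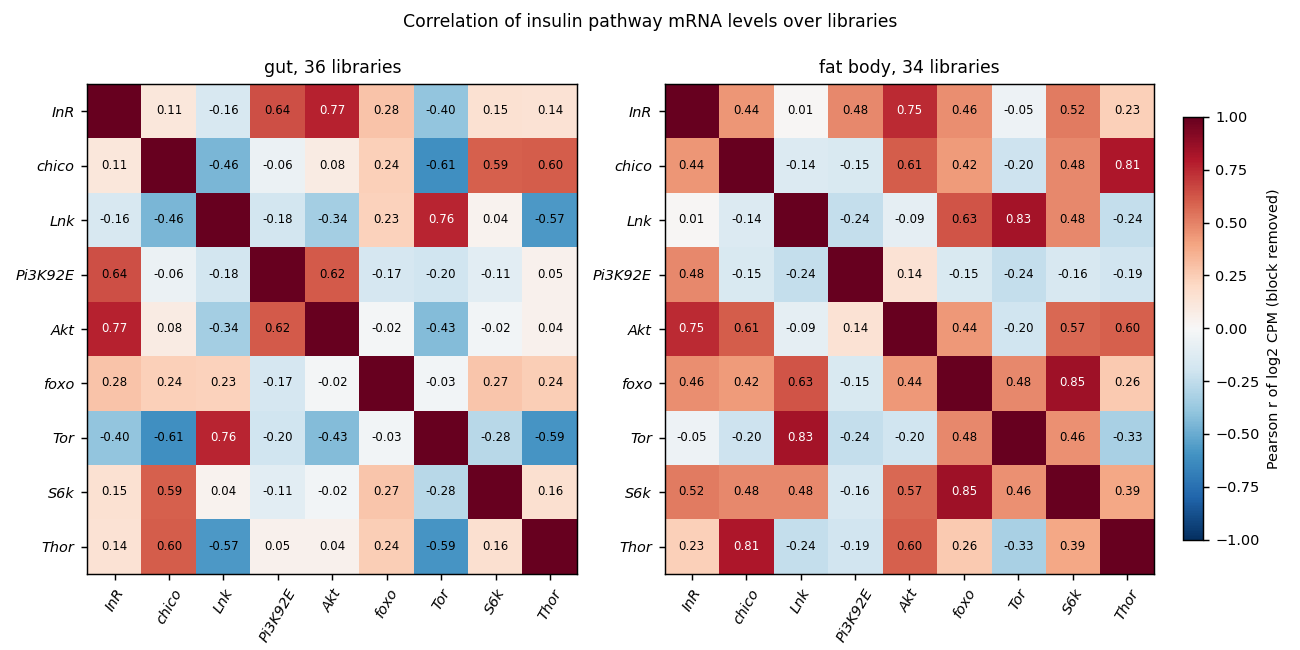
Pearson correlation of log2 CPM between each pair of the 9 genes over 36 gut and 34 fat body libraries, with the block removed. InR with Akt (0.77 and 0.75) and Lnk with Tor (0.76 and 0.83) are strong in both tissues, and no test was made of them.

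Over all gut genes tested with a mean of at least 5 CPM (7421), the genes whose log2 CPM went most closely with foxo over the 36 libraries were aay (r = 0.88), acs (0.79) and CG1208 (0.78). With Thor the closest were TfIIA-S, a subunit of a general transcription factor (0.75), CG18744 (0.74) and the ribosomal protein gene RpL28 (0.73), and with InR RhoGAP71E (0.82), Map205 (0.80) and cv-c (0.78). Over fat body libraries (8280 genes, 34 libraries) foxo went with caps (0.91), the cyclin gene CycG (0.90) and the sex determination gene dsx (0.90), and Thor with CG5773 (0.93), CG10433 (0.93) and CG17292 (0.92). The closest to InR were the transcription factor gene zfh1 (0.81), the CREB coactivator gene Crtc (0.80) and the gene FBgn0050497 (0.79).

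Other genes of the pathway were read from lists. Of the 13 genes of the arm from receptor to Akt and foxo, all tested in both tissues, the induction calls within genotypes were those of foxo alone. In the gut mean response 1 of the 13 passed, against 11.1% of all genes, Pi3K21B, the regulatory subunit of the lipid kinase, higher by 0.51 (edgeR adjusted p = 0.0358) and named after its value was seen. In the fat body, Pdk1, the kinase that activates Akt, passed for the AopACT+PntP1 response minus the AopACT response (1.46 ± 0.40, edgeR adjusted p = 0.0963), where 1.49% of all genes were called. None of the 5 genes of the Tor complexes passed in any comparison of induction in either tissue. Of 15 genes around the Rag and Rheb GTPases 1 passed in Foxo+PntP1 gut, where 2.79% of all genes were called. RagA-B, a GTPase that carries the amino acid signal to Tor, rose there by 1.79 ± 0.47 (n = 1 and 3, edgeR adjusted p = 0.0414). It held 44.2 CPM in the single uninduced library and 138 ± 53.0 CPM in the induced ones, so the result rests on 1 uninduced library. Ilp6, the insulin-like peptide made in the fat body, rose in Foxo+AopACT fat body from 32.1 ± 27.8 CPM in 2 libraries to 177 ± 57.5 CPM in 3 (a log2 difference of 2.62 ± 0.47, edgeR adjusted p = 0.0479), and by 1.06 ± 0.17 in the fat body mean response (edgeR adjusted p = 0.00232). Ilp6 too had been picked by the study from these libraries, so its rise is not independent evidence.

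Of the genes described elsewhere as Foxo targets, 13 of 14 listed were tested in the gut, Thor, InR and Lnk among them. aay, tobi and Thor had been picked by the study from these libraries, so their directions are not independent evidence. In Foxo gut 3 of the 13 rose and none fell: aay, a phosphoserine phosphatase, from 129 ± 17.9 to 1386 ± 258 CPM (log2 fold change 3.44 ± 0.32, edgeR adjusted p = 1.82e-07), Nmdmc, an enzyme of folate metabolism, by 3.11 ± 0.58 (edgeR adjusted p = 0.00826), and tobi, a glucosidase that responds to insulin-like and glucagon-like signals, by 2.40 ± 0.56 (edgeR adjusted p = 0.0580). The median of all 13 was 0.85 on the log2 scale, against 0.0047 over all genes tested. This median and those below include the picked genes aay, tobi, Thor and Ilp6 and were not tested. The list does not separate genes by direction of regulation. Beyond Foxo alone, aay rose with Foxo+AopACT to 509.7 ± 46.7 CPM (edgeR adjusted p = 0.00610) and with the triple combination to 301 ± 193 CPM (edgeR adjusted p = 0.0474), where foxo itself did not pass, and it fell with PntP1 from 159 ± 6.51 to 60.6 ± 1.54 CPM (log2 fold change -1.46 ± 0.35, edgeR adjusted p = 0.0179). In PntP1 gut 4 of the 13 fell, namely aay, tobi, the triglyceride lipase bmm by 1.22 ± 0.28 and the activin-like ligand daw by 3.40 ± 0.78 on the log2 scale (edgeR adjusted p = 0.0138 and 0.0140). With Foxo+AopACT 3 rose (tobi, aay, Nmdmc) and 1 fell (bmm), and with Foxo+PntP1 2 fell (daw, bmm). tobi also rose with AopACT (2.82 ± 0.60, edgeR adjusted p = 0.0351). With the triple combination tobi rose (3.34 ± 0.59, edgeR adjusted p = 0.00180) and bmm fell (-1.27 ± 0.24, edgeR adjusted p = 0.00358). The gut mean response, which called 11.1% of all genes, was -1.15 ± 0.10 for bmm and -1.42 ± 0.25 for daw (edgeR adjusted p = 1.15e-08 and 3.73e-04). It was 1.39 ± 0.24 for tobi and 0.70 ± 0.13 for aay. The medians of the 13 were -0.36 with PntP1, 0.87 with Foxo+AopACT and -0.13 with Foxo+PntP1, against -0.02, -0.10 and 0.05 over all genes tested. In Foxo fat body none of the 13 passed, with a median of -0.43 against -0.02 over all genes tested.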

How the data were processed

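The authors deposited raw counts, whole numbers per gene and library with no normalisation, as 1 table per tissue. They had removed duplicates by molecular identifier, aligned with HISAT2 to fly genome release 6 and counted with featureCounts (SAMtools and DESeq2 are also in the submitters' processing notes). The sources used here do not give whether strand was used. Of 73 labelled libraries 70 have a column and 3 were not analysed here, nor were the authors' variance-stabilised tables.

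Groups came from labels and blocks from the tables. As in the study's methods the model held the block. The 2 tissues were fitted apart (R 4.3.3, edgeR 4.0.16) by the quasi-likelihood test (14 groups and block, TMM, filterByExpr minimum count 10), leaving 9270 genes for the gut and 9734 for the fat body, with 20 and 18 residual degrees of freedom. Calls used a false discovery rate of 10%, the study's own. The tissues were compared in a joint fit of 70 libraries and 9721 genes. RPKM was computed from CPM and merged exon length, and log2 CPM with a prior count of 2. Coordinates are from the Ensembl annotation of release 6.

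Alternatives were RLE scaling, DESeq2 1.42.0, limma 3.58.1 voom with quality weights, dropping the filter or the block, single-genotype fits, and leaving out libraries. The fits were tested on simulated data. Replicate pairs of a group differed by far more than sampling noise (chi-square per degree of freedom at least 11.3 over 31 gut and 10.1 over 26 fat body pairs), and p-values measure the spread between pools. Named genes were the 9, other listed pathway genes that were called with a mean of at least 5 CPM (at most the 6 lowest p per comparison), aop and pnt, and the 3 genes closest to foxo, Thor and InR. Members, lists and tests were chosen with earlier results of these data known.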

Additional observations from a re-analysis of the deposited data

Results flagged for a closer look

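The induction response of foxo in the gut differed between the 7 genotypes by the test of the interaction itself (edgeR adjusted p = 7.97e-05). The counts include transgene mRNA, so this test does not show a response of resident foxo. The gut response lay between 2.36 on the log2 scale with Foxo and -1.27 with PntP1, and every one of the 3 induced Foxo libraries lay above, and both induced PntP1 libraries below, their uninduced libraries. Such non-overlap was seen in 10.5% of all genes with Foxo and 23.7% with PntP1. The PntP1 call was lost without uninduced replicate 1 or 2 (edgeR adjusted p = 0.101 and 0.231). It was also lost with the genotype fitted alone (edgeR adjusted p = 0.185). Nor did it hold without induced replicate 1 or 2, which leaves 1 induced library (log2 fold change -1.36 and -1.18). Enterocyte and progenitor marker values of the same groups stand in the report, and their part in the difference between genotypes was not tested.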

How the results depend on the processing

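No direction of a called value reversed, and of 4844 values of single genes under alternatives 4746 kept their side of the threshold, 16 lost a call and 82 gained one. Most of these values belong to tests that the main fit did not call, where no call could be lost. The 16 losses were of foxo in PntP1 gut, foxo in Foxo+AopACT gut and Lnk between the tissues. In the gut, the 3 induction calls became 6 with DESeq2 and 15 with limma voom, and 2 to 4 with a library left out, while calls over all gut genes also rose, in Foxo+AopACT from 197 to 499 and 3288 and in PntP1 from 282 to 458 and 1362. The single interaction call became 2 and 4, and the single call of the mean response 2 and 3 (2 also without the 2 libraries high in mitochondrial counts, 1 to 3 with a library left out). The 2 calls with and without a transgene became 4 with limma voom (2 to 3 with a library left out). For the fat body DESeq2 called 1 induction response and 2 interactions where edgeR called 0, and also the S6k departure from additivity in Foxo+AopACT (adjusted p = 0.0911), Thor in Foxo+PntP1 minus Foxo (adjusted p = 0.0916) and foxo, InR, Akt and S6k in AopACT+PntP1 minus AopACT, in comparisons where it called 369, 1011 and 764 of 9734 genes. The fat body Foxo+PntP1 response used here for Thor includes the uninduced library with high pnt. The Thor difference between Foxo+AopACT and Foxo gut passed as -1.37 with DESeq2 and -1.48 with limma voom, and stayed at -1.53 to -1.29 with a library left out. The tissue comparison gave 4 to 6 calls with a library left out. The cause of these changes was not tested. The replicate block of the tables is part of the main fit, and libraries of the same block had a mean correlation of deviations of 0.0284 (gut) and 0.0321 (fat body). Without the replicate block the gut gave 3 induction calls and the fat body 0, and the tissue comparison with the library number as a block gave 5, all unchanged in number. Comparisons that use the only uninduced gut Foxo+PntP1 library could not be fitted without it. Depth limits Lnk, Tor and gut InR most.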
